A study of Gossypium hirsutum with 9 samples.

Results

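The genes described are the 29 cotton genes whose symbol in the deposited table was ENT followed by a number, 22 named ENT1 and 7 named ENT3, of 70478 genes in all. They were found by that symbol, and the ENT1 genes Gh_A12G1273 and Gh_D12G1439 had been singled out because earlier results from the same libraries showed them lower after silencing. The difference between the groups is therefore given for the ENT genes as a description, with no p-value. The ENT genes that passed a threshold in the fit across all genes are counted below, and nothing is read from that count. The RNA came from seed fibres, each a single elongating cell of the seed surface, taken from upland cotton (Gossypium hirsutum) plants in the field, 9 days after flowering (9 days post anthesis). The labels list 3 wild-type samples (WT) and 6 samples from plants in which RNA interference was aimed at GhWRKY16, a transcription factor gene (RNAi). The values of 3 WT and 5 RNAi libraries were used, and RNAi replicate 1 was not analysed here. The sources used here do not give the cultivar, the promoter of the construct or the number of transgenic lines. Nothing says that the replicates were separate plants, so the spread behind each p-value is that of these samples and may be in part technical.

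ENT stands for equilibrative nucleoside transporter, a family of membrane proteins with many transmembrane helices that carry purine and pyrimidine nucleosides. In Arabidopsis, ENT1 sits in the vacuole membrane and releases nucleosides from the breakdown of RNA in the vacuole, and ENT3 sits in the plasma membrane and takes nucleosides up into the cell. Nucleosides so recovered are turned back into nucleotides by salvage kinases, among them the uridine nucleotides that carry sugars to the growing cell wall. A symbol in the table is only borrowed from a gene of similar sequence, whatever its species. ENT1 is also the yeast symbol of an epsin, a protein of endocytosis, and the table does not say which gene was meant. The role of a nucleoside transporter is therefore the usual reading of the symbol and was not tested.

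Expression was given as FPKM, fragments scaled to gene length and library size, without read counts. The column sums ranged from 1200826 to 1296912 FPKM. Relative depth, read from the steps between low values, was 0.367 of WT replicate 1 in RNAi replicate 4 and 1.11 to 2.2 in the other RNAi libraries. Since absolute depth is unknown, the values carry no counting interval. The label of the tissue was checked against fibre markers. Gh_D05G1514 (E6, a protein abundant in cotton fibre) averaged 20113 ± 836 FPKM over the WT libraries (SD, n = 3) and 18957 ± 2100 over the RNAi libraries (SD, n = 5). The summed level of all 64 fibre marker genes was 45754 to 47897 FPKM in WT and 39642 to 48688 in RNAi, and 6 of them were listed at 0 in every library. The 119 markers of green tissue summed to 510 to 634 FPKM in WT and 468 to 561 in RNAi, and 15 of them were listed at 0 in every library. Seed storage markers (29 genes, 10 of them listed at 0 throughout) summed to 272 to 452 FPKM in WT and 194 to 547 in RNAi. Most of that sum came from Gh_A10G1465 (LEA5-A), at 214 to 374 FPKM in WT and 140 to 436 in RNAi. LEA stands for late embryogenesis abundant, so the sum is not a measure of storage protein genes. Pollen markers (37 genes, 14 of them listed at 0 throughout) summed to 16.2 to 26.4 FPKM in WT and 19.9 to 24.7 in RNAi. None of the tested genes of these 4 lists passed limma's threshold, beside 0.167% of all genes, and the lowest adjusted p was 0.102. An unadjusted p under 0.05 was found for 7 of 39 tested fibre markers, 8 of 39 green tissue markers, 1 of 7 seed storage markers and 0 of 6 pollen markers, against 5.86% of all genes. The log2 fold change (RNAi minus WT) was positive for 29 fibre markers and negative for 10, with a median of 0.17 and a range of -0.36 to 1.78. It was positive for 18 green tissue markers and negative for 21, with a median of -0.05. The part of these shifts in the differences of the ENT genes was not tested. GhWRKY16 itself was not identified by name in the table, so its silencing was not measured here.

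Most ENT genes were listed at 0 or at low levels in the fibre. Of the 22 ENT1 genes, 10 were listed at 0 in every library and 6 more never exceeded 0.645 FPKM. Of the 7 ENT3 genes, 2 stayed at or below 1.2 FPKM. Without read counts a 0 cannot be read as absence. Among other families, 32 of 120 adenine nucleotide carriers and 16 of 89 nucleobase and ureide transporters were also listed at 0 throughout. So were 4 of 40 genes of purine synthesis and 2 of 34 of purine salvage. Over all 8 lists of nucleoside and nucleotide genes described below, it was 73 of 443. The other members of those lists were not, so these zeros cannot settle what a 0 means. The 11 other ENT genes, 6 ENT1 and 5 ENT3, reached at least 1 FPKM in at least 3 libraries. They are called tested below, since the fit across all genes used the same limit. Of all 70478 genes, 34051 reached it, so low levels are not particular to the ENT genes. By subgenome, 12 of the 29 genes lay on A chromosomes, 16 on D chromosomes and 1 on an unplaced scaffold.

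One gene carried most of the ENT1 transcript. Gh_D12G1439 had 60.6 FPKM in WT replicate 1, 62.8 in WT replicate 2 and 58.5 in WT replicate 3. It had 24.9, 28.5, 35.3, 28.9 and 36.8 FPKM in RNAi replicates 2 to 6. Every RNAi library lay below every WT library. The WT mean was 60.6 ± 2.17 FPKM (SD, n = 3) and the RNAi mean 30.9 ± 4.99 (SD, n = 5), so the RNAi mean was 50.9% of the WT mean. The log2 fold change (RNAi minus WT, on log2(FPKM + 1), a scale that understates changes of low genes) was -0.96 ± 0.14 (SE). In these bulk samples, fewer cells of a type and less RNA per cell cannot be told apart.

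Gh_A12G1315 (ENT1) was the second most abundant ENT gene in WT. It had 7.13, 9.42 and 10.8 FPKM in WT replicates 1 to 3 and 4.09, 4.43, 4.91, 3.08 and 5.12 in RNAi replicates 2 to 6. The groups again did not overlap, and the RNAi mean (4.33 ± 0.804 FPKM; SD, n = 5) was 47.5% of the WT mean (9.12 ± 1.86; SD, n = 3). That is a log2 fold change of -0.92 ± 0.18 (SE).

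Gh_A12G1273 (ENT1) stood at 8.43, 7.8 and 9.11 FPKM in WT replicates 1 to 3 and at 2.26, 3.24, 4.02, 3.57 and 3.42 in RNAi replicates 2 to 6. Its lowest WT library was well above its highest RNAi library. The RNAi mean (3.3 ± 0.65 FPKM; SD, n = 5) was 39.1% of the WT mean (8.45 ± 0.656; SD, n = 3), and the log2 fold change was -1.15 ± 0.16 (SE). The gene next to it, Gh_A12G1272 (ENT1), was listed at 0 in every library. Such a 0 can be a failed estimate where copies share reads, so it does not show that the gene had no transcript.

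**Figure D1:**
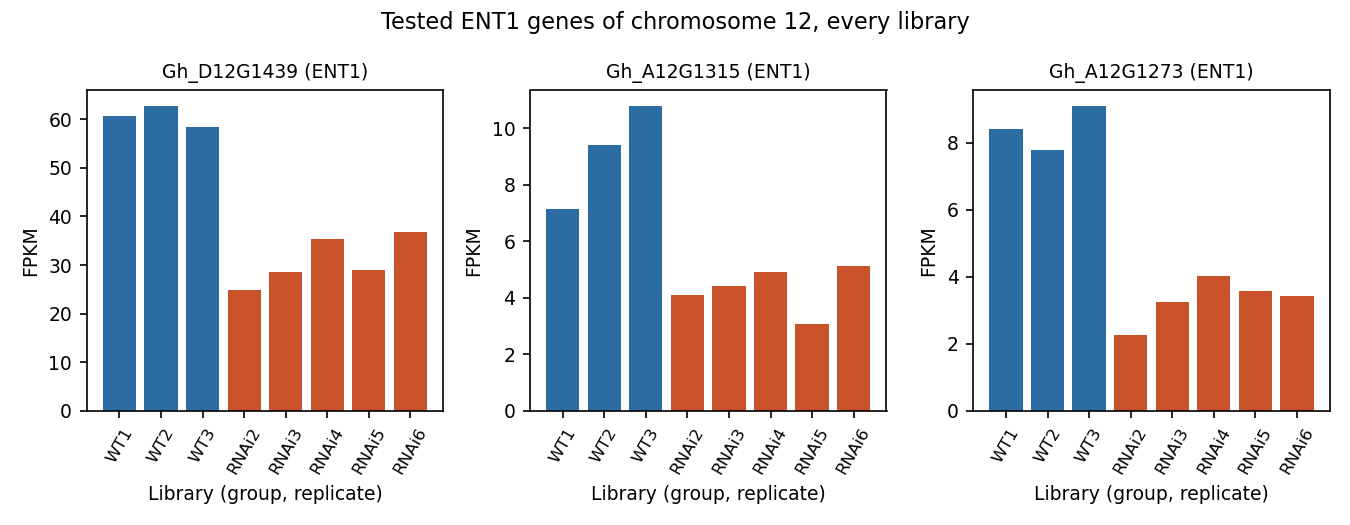
FPKM (linear axis from 0) of the 3 tested ENT1 genes of chromosome 12 in each library, 1 bar per library, WT in blue and RNAi in orange; the axes differ between panels. In each panel every RNAi bar is shorter than every WT bar, and Gh_D12G1439 reaches 62.8 FPKM where Gh_A12G1315 reaches 10.8 and Gh_A12G1273 9.11.

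The other tested ENT1 genes had lower levels, and the groups were not separate in all of them. Gh_A10G0799 had 2.25, 2.04 and 2.19 FPKM in WT and 0.46, 1.05, 1.23, 0.704 and 0.751 in RNAi replicates 2 to 6. Gh_D03G0390 had 2.25, 2.51 and 4.23 FPKM in WT and 0.46, 1.02, 1.05, 1.09 and 1.39 in the RNAi libraries. In both genes all RNAi libraries were below all WT libraries, with log2 fold changes of -0.80 ± 0.17 (SE) and -0.98 ± 0.21 (SE). With a pseudocount of 0.01 in place of 1 these were -1.43 and -1.60. The 2 genes had exactly equal FPKM in 2 of 8 libraries (WT replicate 1 and RNAi replicate 2). Near-identical copies can share reads, and the sources used here do not say how reads that fit several copies were treated, so the levels of these 2 genes are uncertain. Gh_D01G0816 was the exception among the tested ENT1 genes, with 3.21, 4.06 and 2.32 FPKM in WT and 4.03, 3.19, 4.46, 3.45 and 3.54 in RNAi replicates 2 to 6. Its groups overlapped, and its log2 fold change was 0.19 ± 0.17 (SE).

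Among the 6 ENT1 genes too low to test, Gh_D13G1372 had 0.47, 0.4 and 0.213 FPKM in WT, and its highest RNAi value was 0.188. Gh_D06G1680 was listed at 0 in all libraries except RNAi replicates 5 and 6, at 0.384 and 0.524 FPKM. Gh_A13G0741, Gh_D12G0798, Gh_A03G1154 and Gh_A02G1706 overlapped between the groups.

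Summed over all 22 genes, ENT1 reached 87.7 ± 2.58 FPKM over the WT libraries (SD, n = 3) and 45.0 ± 6.83 over the RNAi libraries (SD, n = 5). The sum in RNAi replicates 2 to 6 was 36.5, 42.0, 51.6, 42.2 and 52.4 FPKM, against a lowest WT value of 84.9. Gh_D12G1439 made up 69.1 ± 2.62% of the sum in WT and 68.6 ± 0.914% in RNAi, so its share differed by less than the spread between the libraries. Together Gh_D12G1439, Gh_A12G1315 and Gh_A12G1273 made up 88.9% to 89.7% in WT and 84.1% to 86.5% in RNAi.

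The ENT3 genes did not share this pattern, and the groups overlapped in all 5 tested. The most abundant was Gh_D13G0653, with 3.64, 3.77 and 3.31 FPKM in WT and 5.89, 6.39, 4.11, 5.35 and 3.44 in RNAi replicates 2 to 6. RNAi replicate 6 lay inside the WT range and the other 4 RNAi libraries above it, and the log2 fold change was 0.38 ± 0.18 (SE). Gh_A13G0492 had 0.996 to 1.07 FPKM in WT and 1 to 2.05 in RNAi, with a log2 fold change of 0.30 ± 0.19 (SE). Gh_D06G1335 had 1.13 to 1.19 FPKM in WT and 0.564 to 1.15 in RNAi (-0.22 ± 0.15, log2 fold change ± SE).

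Gh_A03G1878 (ENT3) varied widely among replicates of the same group, from 0.558 FPKM in WT replicate 2 to 5.42 in WT replicate 1, and from 0.392 to 4.03 in RNAi. Gh_D11G2942 (ENT3) ranged from 0.953 to 1.24 FPKM in WT and from 0.171 in RNAi replicate 4, the shallowest library, to 1.88 in RNAi replicate 3. Summed over the 7 genes, ENT3 reached 9.93 ± 2.51 FPKM over the WT libraries (SD, n = 3) and 11 ± 1.91 over the RNAi libraries (SD, n = 5).

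Of the 11 tested ENT genes, 5 had every RNAi library below every WT library, all of them ENT1, and none had every RNAi library above. Across all 34051 tested genes, 2.35% lay wholly below and 1.72% wholly above, 4.07% in all. Past limma's threshold (Benjamini-Hochberg adjusted p under 0.05 over all genes) there were 2 ENT genes, Gh_A12G1273 and Gh_D12G1439, both lower. Over all genes 0.0881% were called lower and 0.0793% higher. Since those 2 genes were chosen by this contrast, nothing is read from either count.

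In order of level, Gh_D12G1439 came first in both groups, every library above every library of the next gene. In WT, Gh_A12G1315 and Gh_A12G1273 came next and overlapped with each other, and both stood above all other ENT genes in every library. From Gh_D13G0653 (3.57 FPKM on average) down to Gh_A10G0799 (2.16), neighbours in the order overlapped, and the 3 lowest, Gh_D06G1335, Gh_D11G2942 and Gh_A13G0492, lay between 1.04 and 1.15 FPKM on average and overlapped too. In RNAi the second place by mean went to the ENT3 gene Gh_D13G0653 (5.04 FPKM), followed by Gh_A12G1315 (4.33), Gh_D01G0816 (3.74) and Gh_A12G1273 (3.3). None of those neighbours in the order was separated in every library.

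**Figure D2:**
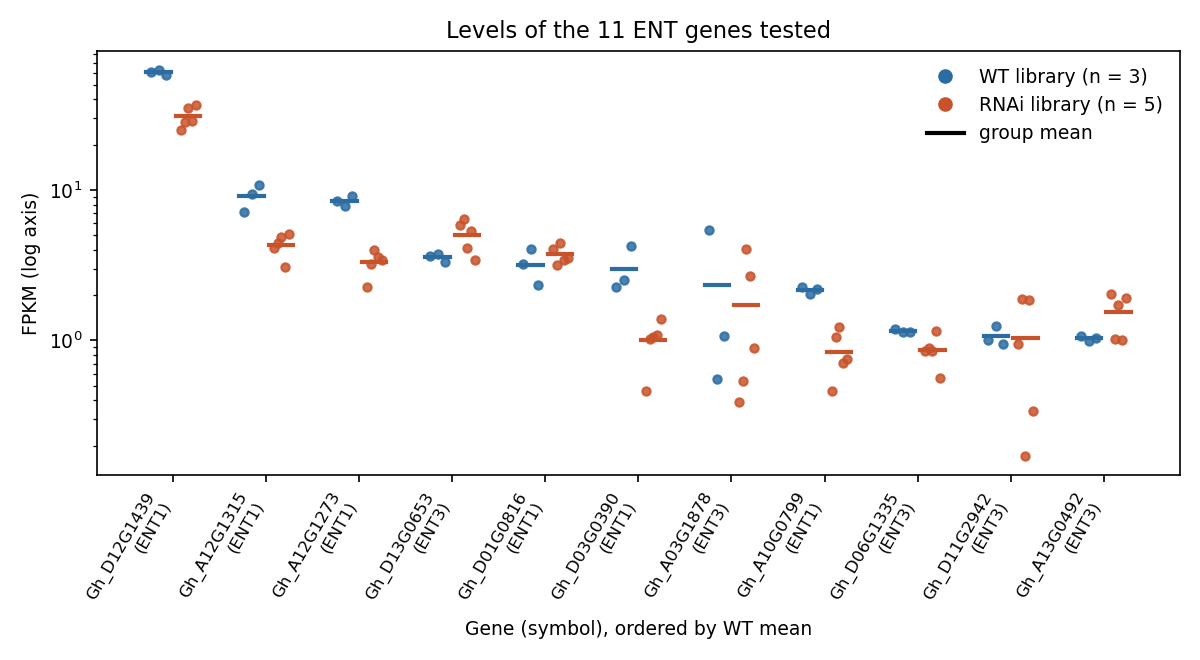
FPKM on a log axis of the 11 tested ENT genes, ordered by WT mean, with 1 point per library (WT blue, n = 3; RNAi orange, n = 5) and a line at each group mean. Gh_D12G1439 stands apart at the top in both groups, the blue and orange points separate in 5 ENT1 genes, and they overlap in Gh_D01G0816 and in all 5 ENT3 genes.

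Upland cotton carries an A and a D subgenome, and most genes occur as an A and a D copy (homoeologs) in matching gene order. Gh_A12G1273 and Gh_D12G1439 had been taken as such a pair, and the gene order in the identifiers went against it. Among the 10 genes on each side, the symbols of the 2 genes' neighbours had 0 in common, also with 5 or 20 genes on each side. Gh_D12G1439 instead matched Gh_A12G1315, which shared 12 of its 13 named neighbours. In both windows ALDH2B4, TATC and Sec23ip lay on one side of ENT1 and rlmN, At4g28440, SRO2 and BHLH90 on the other. No other window of the A chromosomes shared more symbols with that of Gh_D12G1439. Gene order therefore places Gh_A12G1315, and not Gh_A12G1273, opposite Gh_D12G1439, and these are called the A and D copies below.

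The neighbours of Gh_A12G1273 matched another stretch of D12, around Gh_D12G1396, with 11 of 14 named neighbours in common, among them EXPB3, At2g20710, BHLH36, SWI2, AAC3 and RING1A. No gene of that stretch bears an ENT symbol. Its genes between At2g20710 and BHLH36 have no symbol. One of them, Gh_D12G1396, had 0.98, 0.808 and 1.74 FPKM in WT and 0.496, 0.534, 0, 0.447 and 0.32 in RNAi replicates 2 to 6, too low to test, with no overlap between the groups. It is named after its values were seen, and whether it is related to ENT1 is not known.

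Of the other 19 placed ENT1 genes, none shared a named neighbour with an ENT1 gene of the other subgenome within 10 genes, although each had a window there with at least 6 symbols in common. Gh_A10G0799 and Gh_D03G0390, the genes with equal values in 2 libraries, shared 0 neighbours. Among the ENT3 genes, 2 pairs shared at least 5 named neighbours on matching chromosomes, less closely than the ENT1 pair. Another same-numbered pair, Gh_A06G2071 and Gh_D06G1335, shared only 1. Gh_A13G0492 and Gh_D13G0653 shared 7 named neighbours, although a nearby window, centred on Gh_D13G0645, shared 8 with Gh_A13G0492. Gh_A11G2572 and Gh_D11G2942 shared 5 with 10 genes on each side. With 5 or 20 genes on each side they shared 3 and 8, and other windows of A11 shared 4 and 11 with Gh_D11G2942.

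Both copies stood lower in RNAi, at 50.9% of the WT mean for D and 47.5% for A. Gh_D12G1439 had 8.51, 6.67 and 5.41 times the FPKM of Gh_A12G1315 in WT replicates 1 to 3 and 6.09, 6.45, 7.2, 9.36 and 7.18 times in RNAi replicates 2 to 6. The ranges of both groups overlapped. The log2 ratio of A to D (after adding 1 FPKM to each) averaged -2.62 ± 0.30 over the WT libraries (SD, n = 3) and -2.58 ± 0.20 over the RNAi libraries (SD, n = 5), a difference of 0.04 whose sign turned with a pseudocount of 0.1 or 0.01. Reads that fit both copies could be assigned to either, so the ratio itself is uncertain. Against Gh_A12G1273, the log2 ratio to Gh_D12G1439 was -2.71 ± 0.15 in WT and -2.89 ± 0.15 in RNAi. For the ENT3 pair of chromosome 13 the D copy was also the higher in every library, with a log2 ratio of A to D of -1.17 ± 0.09 in WT and -1.25 ± 0.52 in RNAi. There the RNAi libraries ranged from -1.87 to -0.61, around the WT range of -1.26 to -1.08.

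Genes beside the ENT1 genes were measured in the same libraries and had no part in the choice of the ENT genes, so they were tested. None of the 9 tested genes within 10 places of Gh_D12G1439 passed limma's threshold, nor did any of the 11 beside Gh_A12G1315 or the 7 beside Gh_A12G1273, where 1, 0 and 1 had an unadjusted p under 0.05. Over all genes 0.167% were called in either direction and 5.86% had an unadjusted p under 0.05. Their median log2 fold changes were -0.14, -0.03 and -0.02, with a median of -0.02 over all genes tested. Immediately before Gh_D12G1439 lies Gh_D12G1438 (ALDH2B4, named after a mitochondrial aldehyde dehydrogenase). It had 3.04, 4.14 and 3.98 FPKM in WT and 3.9, 5.51, 10.7, 6.31 and 13.5 in RNAi replicates 2 to 6, in the opposite direction to its neighbour and with overlapping groups (log2 fold change 0.82 ± 0.32 SE; limma adjusted p = 0.839). Its A counterpart Gh_A12G1314 (ALDH2B4) was at 0.134 FPKM or less.

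On the other side of Gh_D12G1439, Gh_D12G1441 (At4g28440) was of a similar level to that ENT1 gene in WT, at 72.5 ± 1.15 FPKM (SD, n = 3). It stood at 65.6 ± 4.35 FPKM in RNAi (SD, n = 5), with a log2 fold change of -0.14 ± 0.09 (SE) and a limma adjusted p of 0.877. Gh_D12G1441 and Gh_D12G1449 (BRG3) had all RNAi libraries just below all WT libraries. The same held for Gh_A12G1279 (RING1A) near Gh_A12G1273, with a WT mean of 16.4 ± 0.60 FPKM and an RNAi mean of 13 ± 1.63 (limma adjusted p = 0.839). These were 2 of 9 tested neighbours of Gh_D12G1439 and 1 of 7 of Gh_A12G1273, with 0 of 11 for Gh_A12G1315. Over all tested genes, 2.35% lay wholly below.

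**Figure D3:**
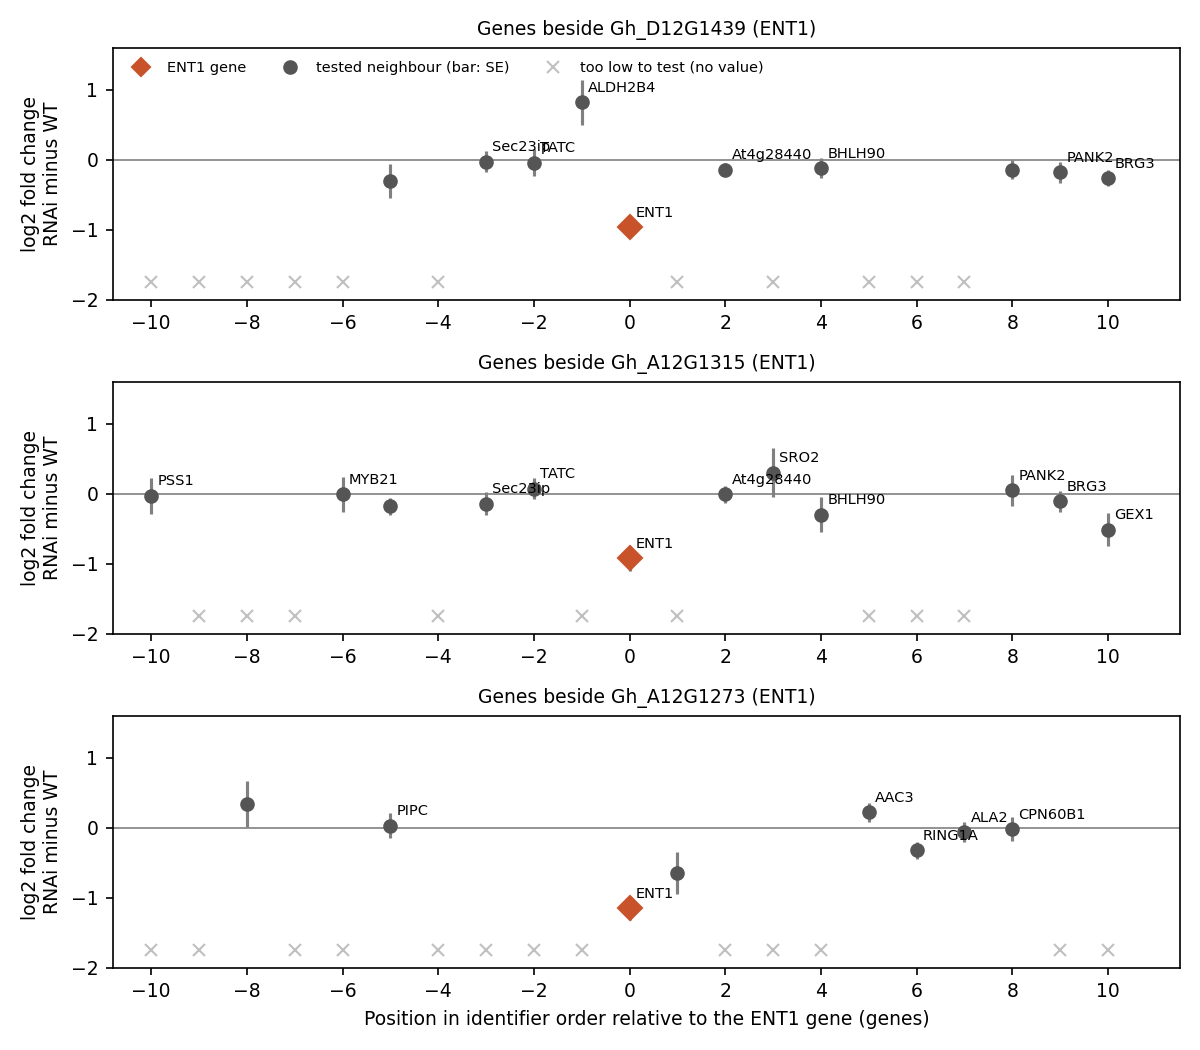
Log2 fold change (RNAi minus WT, vertical axis; bars are the SE) of the genes within 10 places of Gh_D12G1439, Gh_A12G1315 and Gh_A12G1273, by their place in the identifier order (horizontal axis, in genes). The ENT1 genes (diamonds) lie at -0.96, -0.92 and -1.15, the tested neighbours (circles) range from -0.65 to 0.82, and crosses mark genes too low to test, which have no value.

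Enzymes and carriers that handle nucleosides and nucleotides were examined in 8 lists with 254 tested genes. None passed limma's threshold in either direction (adjusted p of 0.449 or more), beside 0.0793% higher and 0.0881% lower over all genes, and 13 had an unadjusted p under 0.05, 5.12% against 5.86% of all genes. Of the 254, 126 had a positive and 128 a negative log2 fold change. Some symbols are shared with unrelated genes, so the lists may hold others. PYR1 is also an abscisic acid receptor, NCS1 a norcoclaurine synthase, PNC1 a peroxidase, AATP1 an AAA-ATPase and ANT1 an amino acid transporter, 26 of the tested genes together. These 26 held 5 of the 13 genes with an unadjusted p under 0.05, and they are not a full count. APC, ADA2 and HPT1 in the lists are also symbols of other genes, and SAMC names a carrier of S-adenosylmethionine.

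Purine salvage was abundant in fibre, and its 28 tested genes had a median log2 fold change of 0.00. Gh_D09G1399 (ADK2, adenosine kinase, which turns adenosine into AMP) had a WT mean of 396 ± 77.6 FPKM (SD, n = 3) and an RNAi mean of 439 ± 35.6 (SD, n = 5; limma adjusted p = 0.887). Gh_A09G1394 (ADK2) stood at 346 ± 63.1 and 386 ± 43.0 FPKM (0.891). Of the 20 tested pyrimidine salvage genes (median -0.01), Gh_D13G2067 (CDA1, cytidine deaminase, which makes uridine) had 74.1 ± 8.94 and 71.0 ± 25.0 FPKM, with RNAi replicate 4 lowest at 33.5, and Gh_A08G2187 (CDA1) 69.5 ± 0.898 and 61.3 ± 9.53.

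The other transporter families did not pass either. Nucleobase and ureide transporters (30 tested, median 0.02) ranged from -0.99 (Gh_D06G1487, PUP9) to 0.58 (Gh_A11G0464, NAT11). Of these 30, 5 had an unadjusted p under 0.05, against 5.86% of all genes, and the lowest limma adjusted p was 0.754. The most abundant were Gh_D12G2630 (NAT6, of the nucleobase-ascorbate transporter family), with means of 63.2 ± 5.53 FPKM (WT) and 69.7 ± 15.7 (RNAi), and Gh_D11G0783 (PUP11, of the purine permease family), at 58.9 ± 8.69 and 60.6 ± 2.87. Both were close in level to Gh_D12G1439 in WT. Adenine nucleotide carriers (61 tested, median 0.00) included Gh_A08G0237 (ANT1) at 192 ± 31.5 and 226 ± 15.2 FPKM. Gh_D12G1400 (AAC3, a mitochondrial ADP/ATP carrier), which lies in the D12 stretch that matches Gh_A12G1273, had 170 ± 44.4 and 208 ± 27.6 FPKM (limma adjusted p = 0.864).

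New synthesis of purines (29 tested, median -0.07) was led by Gh_A03G0174 (PURA1, adenylosuccinate synthetase), with means of 114 ± 6.97 FPKM (WT) and 107 ± 9.86 (RNAi), and Gh_D03G1410 (PURA1), at 87.2 ± 6.63 and 84.7 ± 20.2. New synthesis of pyrimidines (19 tested, median 0.03) held Gh_A04G0112 (PYRB2, aspartate carbamoyltransferase) at 16.7 ± 3.45 and 16.7 ± 0.836 FPKM. Gh_D03G1860 (PYR1) stood at 46.5 ± 11.6 and 31.4 ± 13.1 FPKM (limma adjusted p = 0.86), with RNAi replicate 6 at 51.8. Among nucleotide kinases (22 tested, median -0.08), Gh_A13G0108 (UMK3, which phosphorylates UMP and CMP) had 195 ± 6.66 and 189 ± 7.47 FPKM. Gh_D13G0125 (UMK3) had 155 ± 13.1 and 132 ± 5.23, with all RNAi libraries below all WT libraries (limma adjusted p = 0.84). Genes of RNA and nucleotide breakdown (45 tested, median 0.02) included Gh_D13G1761 (APY2, an apyrase that cleaves ATP) at 53.6 ± 8.24 and 59.1 ± 5.99 FPKM and Gh_A12G0143 (PYD3, beta-ureidopropionase of pyrimidine breakdown) at 48.0 ± 3.48 and 51.4 ± 6.23.

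**Figure D4:**
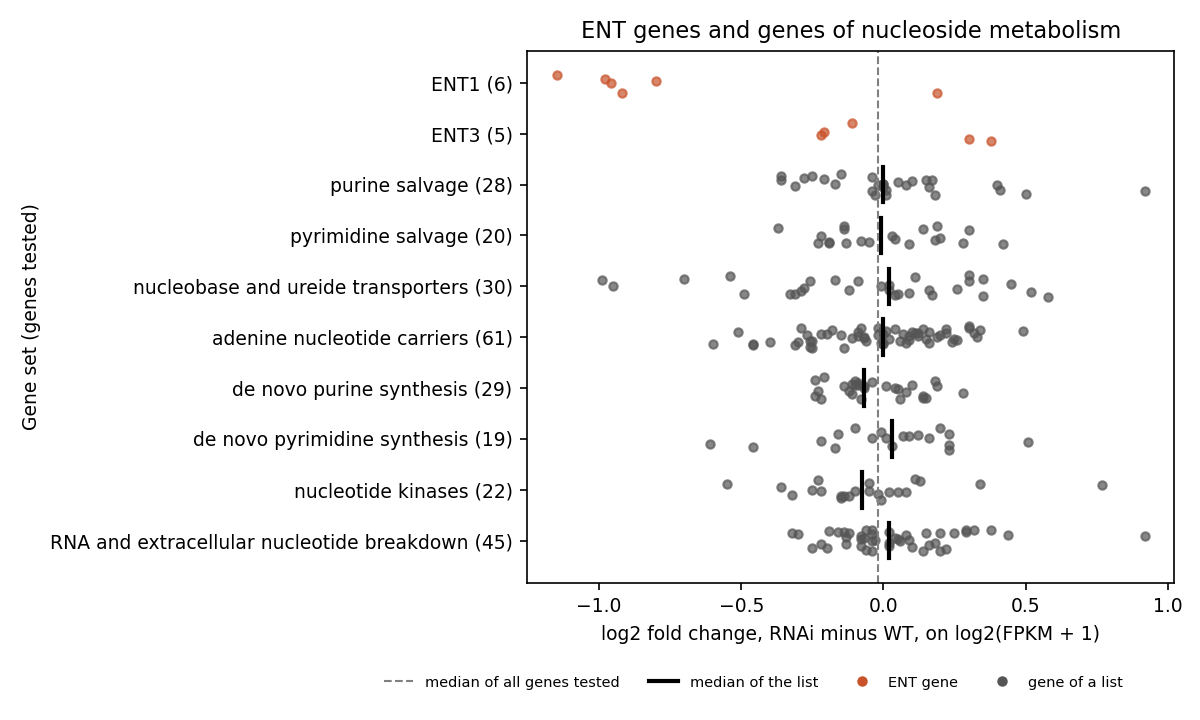
Log2 fold change (RNAi minus WT, on log2(FPKM + 1), horizontal axis) of each tested ENT gene (orange) and each tested gene of the 8 lists (grey), with a line at each list's median; the dashed line is the median of all genes tested. The lists centre between -0.08 and 0.03, whereas 5 of the 6 ENT1 genes lie between -1.15 and -0.80; the ENT1 genes include those chosen for this difference.

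The genes most like the ENT1 genes across the 8 libraries were ranked by Pearson's r on log2(FPKM + 1), among 15322 tested genes with a symbol and a mean of at least 5 FPKM. All libraries are shared and fall into 2 groups, so a high r mostly restates the difference between the groups, and it is given as a description. For Gh_A12G1273 the nearest were Gh_A08G2009 (LCAT3, a phospholipase; r = 0.976), Gh_A11G1848 (At5g10290; 0.975), Gh_A01G0095 (MRS2-3, a magnesium transporter; 0.970), Gh_D12G1439 (0.969) and Gh_A03G2073 (KCR1, a ketoacyl-CoA reductase of fatty acid elongation; 0.968). For Gh_D12G1439 they were Gh_D07G2133 (PRA1D, of a family that binds Rab GTPases; 0.983), MRS2-3 (0.975), Gh_A08G0161 (SBT2.5, a subtilisin-like protease; 0.973), At5g10290 (0.970) and Gh_A12G1273 (0.969). After each group's mean was removed, r stayed positive for all of them, from 0.58 for Gh_A12G1273 with MRS2-3 to 0.94 for Gh_D12G1439 with PRA1D, and was 0.69 between both ENT1 genes. The genes were picked by r over these same libraries, which favours a positive r here too, so nothing is read from it. MRS2-3 had 21.8 to 24.1 FPKM in WT and 0.954 to 3.22 in RNAi, and LCAT3 8.52 to 15.9 and 1.11 to 2.15. PRA1D had a narrower gap, with 6.99 to 7.46 FPKM in WT and 3.88 to 5.67 in RNAi.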

How the data were processed

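The authors deposited FPKM per gene, 1 column per library, with identifiers and symbols. The submitters' processing notes name FastQC, HISAT2 and DESeq 1.10.1 but not what each did, and the sources used here state no build, annotation or counter. The reference table matched 0 identifiers, so no coordinates or sequences are given. Genes at 1 FPKM or more in at least 3 libraries (34051) were fitted in R 4.3.3 with limma 3.58.1 on log2(FPKM + 1) (eBayes with trend, two-sided, Benjamini-Hochberg). The fit was checked on made-up values with known changes, drawn independently for each gene and library from a normal distribution. Such values do not imitate uneven depth or correlated genes, so the check cannot vouch for the calls made here. Relative depth is the most frequent ratio, in log2 steps of 0.01, between values under 0.5 FPKM. The ENT genes, lists and tests were chosen with earlier results of these data known. From each list the called genes and the 2 most abundant are named. The fixed rule for A and D pairs (same symbol and chromosome number, 1 gene each) gave 4 pairs, 1 with both genes tested. Pairing by neighbours and the tests of neighbours were added after seeing the data. Chromosomes and gene order are read from the identifiers.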

Additional observations from a re-analysis of the deposited data

Results flagged for a closer look

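Of 37 genes examined for 1 RNAi library standing apart, 1 was marked. Gh_A04G0342 (LAT52, a pollen marker) had 7.68 FPKM in RNAi replicate 2 and 12.7 to 14.2 in the other 4 RNAi libraries. Chance alone marks about 1 in 20 groups.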

How the results depend on the processing

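The 57 genes called between RNAi and WT became 35 with a pseudocount of 0.01 and 27 with a filter at a mean of 5 FPKM. With 1 library left out the count ranged from 33 to 58. It was 33 without WT replicate 2 or WT replicate 3, 37 without RNAi replicate 2 and 34 without RNAi replicate 5. With the replicate number as a block it was 313, but only replicates 2 and 3 occur in both groups. Their deviations from the group means correlated at 0.350 and -0.093 across genes. With only replicates 2 and 3 to compare, these values cannot decide whether samples of the same number were handled together. None of the 254 nucleoside pathway genes was called under any alternative run. With pseudocounts of 0.1 and 0.01 the log2 ratio of Gh_A12G1315 to Gh_D12G1439 was -2.81 and -2.84 in RNAi against -2.74 and -2.75 in WT, so RNAi then lay below WT. That of Gh_A13G0492 to Gh_D13G0653 was -1.69 and -1.78 in WT against -1.67 and -1.73 in RNAi, so RNAi then lay above WT; the smaller pseudocount shrinks low values less. Over 13 alternatives the log2 fold change stayed negative for the 5 ENT1 genes with separate groups, from -1.37 to -1.05 for Gh_A12G1273, -1.15 to -0.89 for Gh_D12G1439, -1.08 to -0.80 for Gh_A12G1315, -1.43 to -0.72 for Gh_A10G0799 and -1.60 to -0.77 for Gh_D03G0390. The last 2 genes were the lowest of the 5 in level. It changed sign in some for Gh_A03G1878 (-0.62 to 0.40) and Gh_D11G2942 (-0.54 to 0.18). With 8 libraries of unknown absolute depth, genes near 1 FPKM are the least certain.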
